A study of Mus musculus with 6 samples.

Results

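Inhibitory synapses were examined through 27 genes whose products make, package, sense, anchor or break down GABA, form glycine receptors, or move the chloride that inhibitory receptors conduct. The genes were taken by symbol from a table of 13886 genes. It covers RNA immunoprecipitated from the medial amygdala (MeA) to enrich kisspeptin-expressing cells, so a listing alone does not place a gene in those cells. All 27 symbols were listed there, each as 1 gene. They comprise 9 GABA-A receptor subunits, 2 GABA-B receptor subunits with 3 of their Kctd auxiliary subunits, 3 glycine receptor subunits, 4 genes of GABA synthesis, vesicle loading and breakdown, 4 genes of postsynaptic anchoring and receptor trafficking, and 2 chloride transporters.

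GABA is made from glutamate by the GAD enzymes, loaded into vesicles by the vesicular inhibitory amino acid transporter Vgat, and broken down by GABA transaminase. GABA-A and glycine receptors are ligand-gated chloride channels held at the postsynaptic membrane by the scaffold protein gephyrin, whereas the GABA-B receptor is a G protein-coupled receptor that acts on potassium and calcium channels. The MeA contains many GABAergic cells, and its kisspeptin cells are known for a higher *Kiss1* expression in the presence of estradiol.

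RNA-seq was performed on ribosome-bound mRNA from Kiss1Cre+/Rpl22HA+/+ female mice, a RiboTag model in which Cre recombination places a hemagglutinin (HA) tag on the ribosomal protein Rpl22 of cells carrying Kiss1Cre, so that any cell that expressed the Cre earlier in life may also carry the tag. Ovaries were removed at the age of 8 weeks in every mouse, and every mouse then had 4 days of E2 (estradiol) followed by 7 days free of it. The E2 females next received the hormone for 5 days, while the OVX females remained without it. There were 3 libraries per treatment, each from 1 immunoprecipitated (IP) pool of MeA micropunches from 4 brains, so an OVX or E2 replicate stands for a pool of animals.

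Scaled library sizes were 28.08 to 34.16 M reads, and the correlation between libraries was 0.977 to 0.989 across genes, which are not independent replicates. *Kiss1* (gene model ENSMUSG00000115958) averaged a log2 CPM (log2 of the library-scaled read count, CPM) of 1.75 ± 0.59 in OVX and 3.66 ± 0.19 in E2 females (SD, n = 3 each), a difference of 1.91 (SE 0.26, limma adjusted p = 0.00475). The other *Kiss1* model of the table (ENSMUSG00000116158) had -5.82, -0.65 and 0.10 in OVX and 2.97, 3.18 and 2.65 in E2 libraries, the lowest of these being the value of a count of 0, and did not pass the test (limma adjusted p = 0.0942). All 5 neuron markers were listed, with a summed level of 4130 to 4422 CPM in OVX and 4141 to 4541 CPM in E2 libraries. Markers of other cells were also listed in full. The sum of 6 markers of excitatory neurons from forebrain regions beyond the MeA was 920.6 to 1197 CPM in OVX and 696.9 to 913.7 CPM in E2 libraries, without overlap, and 0 of the 6 were higher in the E2 mean. Most of this sum was *Slc17a7*, with a mean log2 CPM of 9.47 beside 6.81 for *Nrn1*, the next highest. *Slc17a7* was also the 1 marker of these 6 whose groups were apart. The sum of 8 astrocyte markers was 952.7 to 1164 CPM in OVX and 1110 to 1321 CPM in E2 libraries, and all 8 were higher in the E2 mean. In contrast, the sum of 6 transcription factor genes that mark forebrain inhibitory neurons was 73.17 to 86.02 CPM in OVX and 69.72 to 79.68 CPM in E2 libraries, with 3 of the 6 higher. The E2 mean was higher for 0 of 5 choroid plexus markers, whose median difference of -0.61 was the largest shift of the 9 lists and whose sum overlapped (685.8 to 1072 CPM in OVX, 393 to 1013 CPM in E2 libraries), for 6 of 7 oligodendrocyte, 6 of 7 endothelial and mural, 2 of 7 microglia and 3 of 6 striatal markers. Of the 57 markers in the 9 lists, 0 passed the test between treatments (limma, adjusted p under 0.05), where 0.288% of all genes did. An unadjusted p under 0.05 was found for 10 of the 57, where 8.56% of all genes had one. Of these 10, 5 were excitatory, 2 astrocyte, 2 choroid plexus and 1 oligodendrocyte. The part of other cells in the differences and levels given here was not tested.

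Of the 27 inhibitory synapse genes, 0 passed the test between E2 and OVX females (limma, adjusted p under 0.05 over all 13886 genes), where 0.288% of all genes did. At an unadjusted p under 0.05 there were 5 genes, *Glra3*, *Gad2*, *Glra2* and *Abat* with the higher mean in E2 and *Gabbr2* with the higher mean in OVX, or 18.5% of the genes beside 8.56% of all genes. In 10 genes (37.0%) all 3 E2 libraries lay on the same side of all 3 OVX libraries, beside 13.7% of all genes. The E2 libraries were above OVX for *Glra3*, *Gad2*, *Glra2*, *Abat*, *Lhfpl4* and *Gabra4*, and below OVX for *Gabbr2*, *Gabra3*, *Kctd16* and *Slc12a5*, while the other 17 genes overlapped. The E2 mean was higher for 17 genes and lower for 10, with a median log2 difference of 0.06 beside 0.00343 for all genes. The median absolute difference was 0.11 for the inhibitory synapse genes and 0.09 for all genes. The residual SD had a median of 0.11 in the inhibitory synapse genes and 0.13 in all genes, and 25 of the 27 genes were above the median log2 CPM of all genes. In bulk RNA of this kind, a lower level from fewer cells cannot be told apart from less RNA per cell.

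The 95% interval of the difference lay within 0.5 log2 units of 0, a fold of 1.41, for 24 of the 27 genes, and extended beyond it for *Glra3*, *Kctd16* and *Kctd8*. For every GABA-A and GABA-B receptor subunit and for every gene of GABA synthesis, anchoring and chloride transport, the interval thus held no fold above 1.41, whereas smaller differences in either direction remained within most of them.

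**Figure D1:**
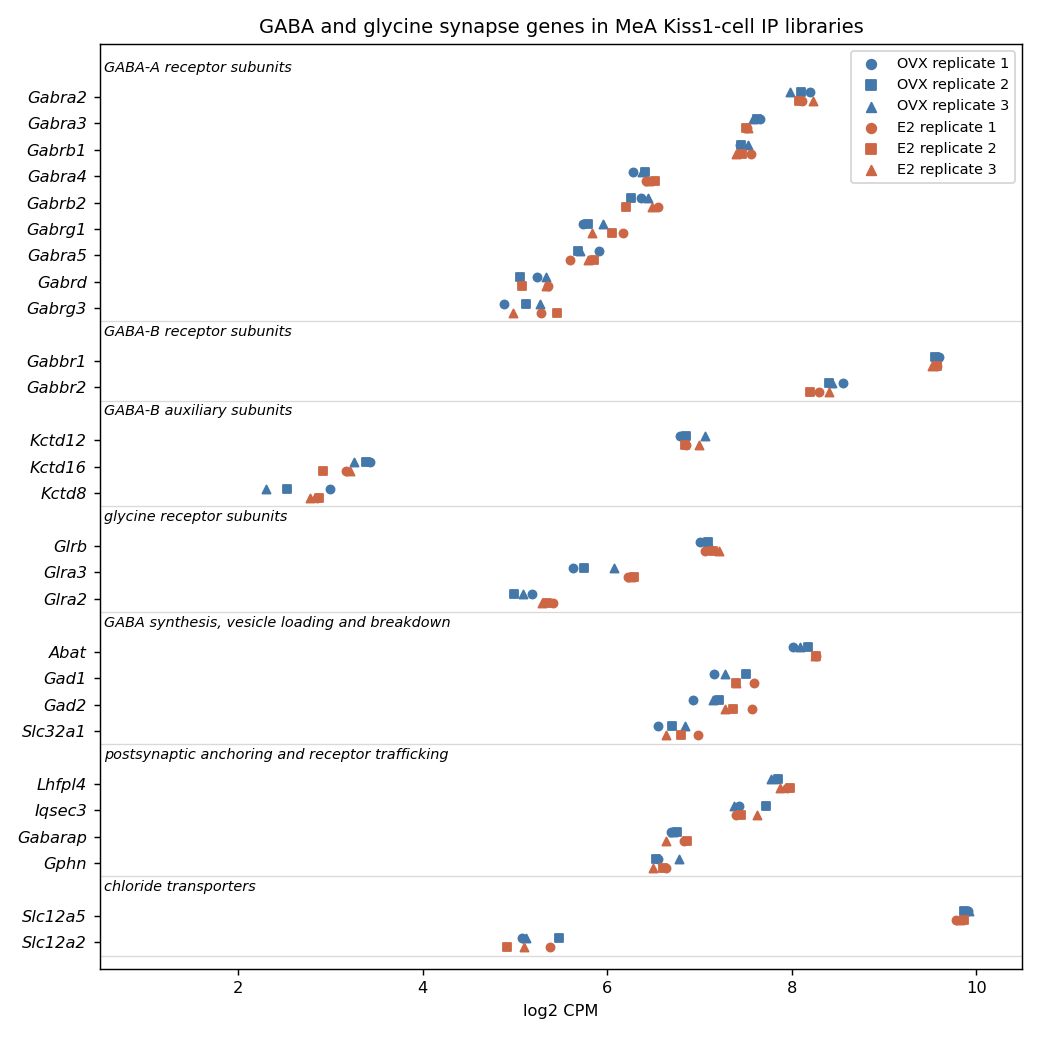
Log2 CPM (x axis) of the 27 inhibitory synapse genes in each of the 3 OVX (blue) and 3 E2 (orange) IP libraries, grouped by role and marked by replicate, with 1 point per library. The E2 points lie to the right of all OVX points for 6 genes, among them *Glra3* and *Gad2*, to the left for 4 genes, and are mixed with them for the other 17.

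The 3 glycine receptor subunits had the highest median difference of the roles, 0.26 with a range from 0.08 to 0.44, and all 3 had the higher mean in E2 females, although none passed the test. *Glra3* (ENSMUSG00000038257, chromosome 8 from 55940460 to 56130070 on GRCm38), which encodes an alpha subunit carrying the glycine binding site, had a log2 CPM of 5.63, 5.75 and 6.08 in OVX replicates 1, 2 and 3 and 6.23, 6.29 and 6.26 in E2 replicates 1, 2 and 3. The E2 libraries lay close together above all OVX libraries, and OVX replicate 3 was nearest to them. The mean was 5.82 ± 0.23 in OVX and 6.26 ± 0.03 in E2 females (SD, n = 3 each), a difference of 0.44 (SE 0.10, 95% interval 0.23 to 0.65, 1.36-fold, limma adjusted p = 0.112). Without OVX replicate 3 the difference was 0.57 and passed the test (limma adjusted p = 0.00936), whereas leaving out any other library gave adjusted p-values up to 0.415, and over all alternatives tried the adjusted p ran from 0.00936 to 0.582.

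*Glra2* (ENSMUSG00000018589, chromosome X from 165129017 to 165327393), the gene of another alpha subunit, had 5.19, 4.99 and 5.09 in OVX and 5.41, 5.34 and 5.30 in E2 libraries. Again each E2 library was above each OVX library, with all 6 values within 0.42 log2 units. The difference was 0.26 (SE 0.08, 95% interval 0.08 to 0.44, 1.20-fold, limma adjusted p = 0.362). *Glrb* (ENSMUSG00000028020, chromosome 3 from 80843599 to 80913660), which encodes the beta subunit that binds gephyrin and can pair with any alpha subunit, had 7.003, 7.095 and 7.088 in OVX and 7.064, 7.151 and 7.207 in E2 libraries. Here the groups overlapped, and the difference was 0.08 (SE 0.06, limma adjusted p = 0.797).

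The genes of GABA synthesis, vesicle loading and breakdown all had the higher mean in E2 females, with differences from 0.11 to 0.31, and 2 of the 4 did not overlap between treatments, where 13.7% of all genes did not. *Gad2* (ENSMUSG00000026787, chromosome 2 from 22622205 to 22693874), which encodes the GAD enzyme concentrated at nerve terminals, had a log2 CPM of 6.93, 7.21 and 7.14 in OVX and 7.57, 7.37 and 7.27 in E2 libraries. OVX replicate 1 was the lowest and E2 replicate 1 the highest, and the nearest libraries of the groups, OVX replicate 2 and E2 replicate 3, lay side by side. The difference was 0.31 (SE 0.09, 95% interval 0.13 to 0.49, 1.24-fold, limma adjusted p = 0.251).

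*Gad1* (ENSMUSG00000070880, chromosome 2 from 70553072 to 70602014), the gene of the GAD enzyme found throughout the cell, had 7.15, 7.51 and 7.27 in OVX and 7.59, 7.39 and 7.40 in E2 libraries. OVX replicate 2 was above 2 of the E2 libraries, so the groups overlapped, with a difference of 0.15 (SE 0.08, limma adjusted p = 0.692) that ran from 0.07 to 0.25 with 1 library left out. *Slc32a1* (ENSMUSG00000037771, chromosome 2 from 158610767 to 158615748), which encodes Vgat, had 6.55, 6.70 and 6.85 in OVX and 6.98, 6.80 and 6.64 in E2 libraries. Its values were mixed between treatments, with a difference of 0.11 (SE 0.09, limma adjusted p = 0.815). *Slc32a1* also shares 697 exonic bases with the antisense model Gm14205, whose reads cannot be told apart in unstranded libraries.

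*Abat* (ENSMUSG00000057880, chromosome 16 from 8513429 to 8621568), which encodes GABA transaminase, had 8.01, 8.18 and 8.09 in OVX and 8.26, 8.26 and 8.26 in E2 libraries. The 3 E2 libraries were nearly equal and all above OVX, with a difference of 0.17 (SE 0.06, 95% interval 0.05 to 0.29, 1.12-fold, limma adjusted p = 0.400). Across the synthesis, loading and breakdown genes, OVX replicate 1 was the lowest library for all 4. Among all 27 inhibitory synapse genes this library was the lowest for 10, while it was the lowest for 21.05% of all genes, and E2 replicate 1 was the highest for 8 inhibitory synapse genes and for 17.43% of all genes.

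The sequences before the transcription starts of the GAD genes and of the glycine alpha subunit genes are shown because *Glra3*, *Gad2* and *Glra2* had the largest differences of the inhibitory synapse genes and *Gad1* is the partner of *Gad2*. Each is the stretch of 250 bases before the RefSeq start, 5′ to 3′ on the strand of the gene, and lies at chr2:70561879-70562128 (+) for *Gad1*, chr2:22622077-22622326 (+) for *Gad2*, chrX:165327394-165327643 (-) for *Glra2* and chr8:55940168-55940417 (+) for *Glra3*, on GRCm38.p6. Capitals mark the TATA-box motif TATAAA on either strand, which is written TTTATA where the match is on the opposite strand.
Gad1: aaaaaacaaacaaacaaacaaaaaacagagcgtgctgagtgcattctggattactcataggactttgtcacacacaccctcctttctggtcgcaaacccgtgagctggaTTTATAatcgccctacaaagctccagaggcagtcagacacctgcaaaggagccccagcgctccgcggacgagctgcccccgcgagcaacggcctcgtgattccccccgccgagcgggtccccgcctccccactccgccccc
Gad2: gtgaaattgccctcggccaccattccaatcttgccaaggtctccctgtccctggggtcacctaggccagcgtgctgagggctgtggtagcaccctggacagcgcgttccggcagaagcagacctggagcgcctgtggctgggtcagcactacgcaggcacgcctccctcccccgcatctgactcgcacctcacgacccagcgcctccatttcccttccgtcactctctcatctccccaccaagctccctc
Glra2: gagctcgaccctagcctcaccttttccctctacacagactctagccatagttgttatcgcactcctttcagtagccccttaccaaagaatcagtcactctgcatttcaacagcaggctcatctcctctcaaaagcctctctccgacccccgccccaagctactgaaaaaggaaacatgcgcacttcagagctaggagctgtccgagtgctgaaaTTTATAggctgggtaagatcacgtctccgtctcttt
Glra3: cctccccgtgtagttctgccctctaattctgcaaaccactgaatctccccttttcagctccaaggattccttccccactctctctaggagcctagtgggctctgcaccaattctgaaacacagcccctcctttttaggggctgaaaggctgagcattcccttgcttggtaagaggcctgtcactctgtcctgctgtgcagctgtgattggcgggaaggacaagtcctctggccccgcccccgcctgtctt
In *Gad1* the motif starts 141 bases and in *Glra2* 36 bases before the RefSeq start, and both matches are on the strand opposite to the gene. The *Gad1* stretch lies wholly inside the gene span given above, which starts at 70553072. The *Gad2* stretch lies partly inside its own span, which starts at 22622205. The stretches of *Gad2* and *Glra3* hold none.

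Over a longer set, RefSeq windows of 300 bases (250 before and 50 after a start) were found for 23 of the 27 inhibitory synapse genes, 28 windows in all, and compared with the 32851 windows of all genes. TATAAA on either strand was in 5 of the 28 windows (17.9%), those of *Gabra3*, *Gabrb2*, *Gad1* and *Glra2*, and in 13.6% of all windows. The single site of the estrogen response element, AGGTCA on either strand, was in 0 of the 28 windows and in 16.3% of all windows. The palindromic element, GGTCA and TGACC with 3 bases between them, which may overlap the single site, was in 0 of the 28 windows and in 0.07% of all windows. The cyclic AMP response element TGACGTCA was in 1 window (3.57%), that of *Kctd8*, and in 1.79% of all windows. The median GC content was 60.5% in the 28 windows and 52.7% in all windows. A match or its lack describes these letters in these windows only.

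The 9 GABA-A receptor subunits ranged in difference from -0.11 to 0.19, with the higher mean in E2 females for 7 of the 9. Groups were apart for *Gabra3* and *Gabra4*, in opposite directions. *Gabra3* (ENSMUSG00000031343, chromosome X from 72432681 to 72656848), which encodes the alpha3 subunit, had 7.65, 7.62 and 7.58 in OVX and 7.51, 7.50 and 7.52 in E2 libraries. The 3 E2 libraries lay just below the lowest OVX library, and the difference was -0.11 (SE 0.05, 95% interval -0.22 to 0.01, limma adjusted p = 0.611). *Gabra4* (ENSMUSG00000029211, chromosome 5 from 71569749 to 71658308), which encodes the alpha4 subunit found in many extrasynaptic receptors, had 6.28, 6.41 and 6.37 in OVX and 6.42, 6.51 and 6.46 in E2 libraries. The highest OVX and the lowest E2 library nearly met, and the difference was 0.11 (SE 0.06, limma adjusted p = 0.698).

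*Gabra2* (ENSMUSG00000000560, chromosome 5 from 70957597 to 71095849), an alpha subunit gene that took more reads than the other GABA-A subunit genes of the list, had 8.20, 8.10 and 7.99 in OVX and 8.11, 8.08 and 8.23 in E2 libraries. These values were mixed between treatments, with a difference of 0.05 (SE 0.07, 95% interval -0.09 to 0.19, limma adjusted p = 0.912). The largest difference of the role was that of *Gabrg1*, a gamma subunit gene, at 0.19 (SE 0.09, limma adjusted p = 0.600), where E2 replicate 3 lay below OVX replicate 3. *Gabrg3*, the gene of another gamma subunit, differed by 0.15 (SE 0.12) and had the widest spread of the role, from 4.88 to 5.46. *Gabrd*, which encodes the delta subunit of extrasynaptic receptors, differed by 0.05 (SE 0.10), *Gabra5* by -0.01 (SE 0.09), and the beta subunit genes *Gabrb1* and *Gabrb2* by 0.01 (SE 0.06) and 0.06 (SE 0.09).

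Of these subunit genes, *Gabrg1*, *Gabra2*, *Gabra4* and *Gabrb1* are neighbours on chromosome 5 with 0 other listed genes between them (differences of 0.19, 0.05, 0.11 and 0.01). *Gabra4* and *Gabrb1* lie head to head and share 46 exonic bases, so that reads there cannot be assigned to either. *Gabrg3* and *Gabra5* are neighbours on chromosome 7, 20.5 kb apart with 0 other listed genes between them, and their differences were 0.15 and -0.01.

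The GABA-B receptor is formed by the products of both subunit genes, *Gabbr1* for ligand binding and *Gabbr2* for G protein coupling. *Gabbr2* (ENSMUSG00000039809, chromosome 4 from 46662305 to 46991873) had a log2 CPM of 8.56, 8.41 and 8.43 in OVX and 8.29, 8.20 and 8.41 in E2 libraries. OVX replicate 2 and E2 replicate 3 were separated by less than 0.01 log2 units, and OVX replicate 1 stood above the rest. The difference was -0.17 (SE 0.06, 95% interval -0.31 to -0.03, 1.12-fold lower in E2, limma adjusted p = 0.470). *Gabbr1* (ENSMUSG00000024462, chromosome 17 from 37045966 to 37075067) had 9.60, 9.55 and 9.58 in OVX and 9.57, 9.57 and 9.52 in E2 libraries, all within 0.07 log2 units. Its groups overlapped, and the difference was -0.02 (SE 0.05, 95% interval -0.13 to 0.09, limma adjusted p = 0.970).

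The Kctd proteins bind the GABA-B receptor and set the speed of its response. *Kctd12* (ENSMUSG00000098557, chromosome 14 from 102976581 to 102982637) had 6.79, 6.85 and 7.06 in OVX and 6.86, 6.85 and 6.99 in E2 libraries, with replicate 3 the highest of each group. The groups overlapped, with a difference of -0.01 (SE 0.08, limma adjusted p = 0.993), and 3805 of the exonic bases of *Kctd12* are shared with the lincRNA model Gm26778. *Kctd16* (ENSMUSG00000051401) had 3.42, 3.39 and 3.26 in OVX and 3.16, 2.92 and 3.22 in E2 libraries, each E2 library below each OVX library. Its difference was -0.25 (SE 0.15, 95% interval -0.59 to 0.08, limma adjusted p = 0.715), and 360 of its exonic bases are shared with an antisense model. *Kctd8*, with the lowest level per kilobase of the 27 genes, had 2.999, 2.533 and 2.302 in OVX and 2.859, 2.875 and 2.783 in E2 libraries, and its difference of 0.23 (SE 0.20, limma adjusted p = 0.832) was within the spread of the OVX libraries. *Kctd8* and *Kctd16* had the largest SEs of the 27 genes and were the 2 genes below the median log2 CPM of all genes.

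Among the anchoring and trafficking genes the groups were apart for *Lhfpl4* (ENSMUSG00000042873, chromosome 6 from 113168090 to 113195384), whose product links GABA-A receptors to neuroligin at inhibitory synapses. It had 7.84, 7.85 and 7.78 in OVX and 7.95, 7.98 and 7.88 in E2 libraries. E2 replicate 3 was only slightly above OVX replicate 2, and the difference was 0.12 (SE 0.06, 95% interval -0.0028 to 0.23, limma adjusted p = 0.600). *Iqsec3* (ENSMUSG00000040797, chromosome 6 from 121372933 to 121473678), which encodes a guanine nucleotide exchange factor that binds gephyrin, had 7.43, 7.72 and 7.37 in OVX and 7.40, 7.45 and 7.62 in E2 libraries. Its values were mixed, with a difference of -0.02 (SE 0.09, limma adjusted p = 0.983). *Gphn*, the gephyrin gene, differed by -0.04 (SE 0.08) and *Gabarap*, whose product binds GABA-A receptor gamma subunits during transport, by 0.06 (SE 0.07), both with overlapping groups.

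The chloride transporters set whether GABA and glycine hyperpolarize a neuron, with *Slc12a5* encoding the chloride exporter KCC2 and *Slc12a2* the importer NKCC1. *Slc12a5* (ENSMUSG00000017740, chromosome 2 from 164960802 to 164999731) had 9.91, 9.87 and 9.92 in OVX and 9.78, 9.86 and 9.82 in E2 libraries. The E2 libraries were all lower, but E2 replicate 2 was almost level with OVX replicate 2, and the difference was -0.08 (SE 0.05, 95% interval -0.19 to 0.04, limma adjusted p = 0.757). *Slc12a2* (ENSMUSG00000024597) had 5.08, 5.48 and 5.12 in OVX and 5.38, 4.92 and 5.10 in E2 libraries. The lowest and the highest E2 library spanned most of the OVX range, with a difference of -0.09 (SE 0.13, 95% interval -0.37 to 0.18, limma adjusted p = 0.906).

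**Figure D2:**
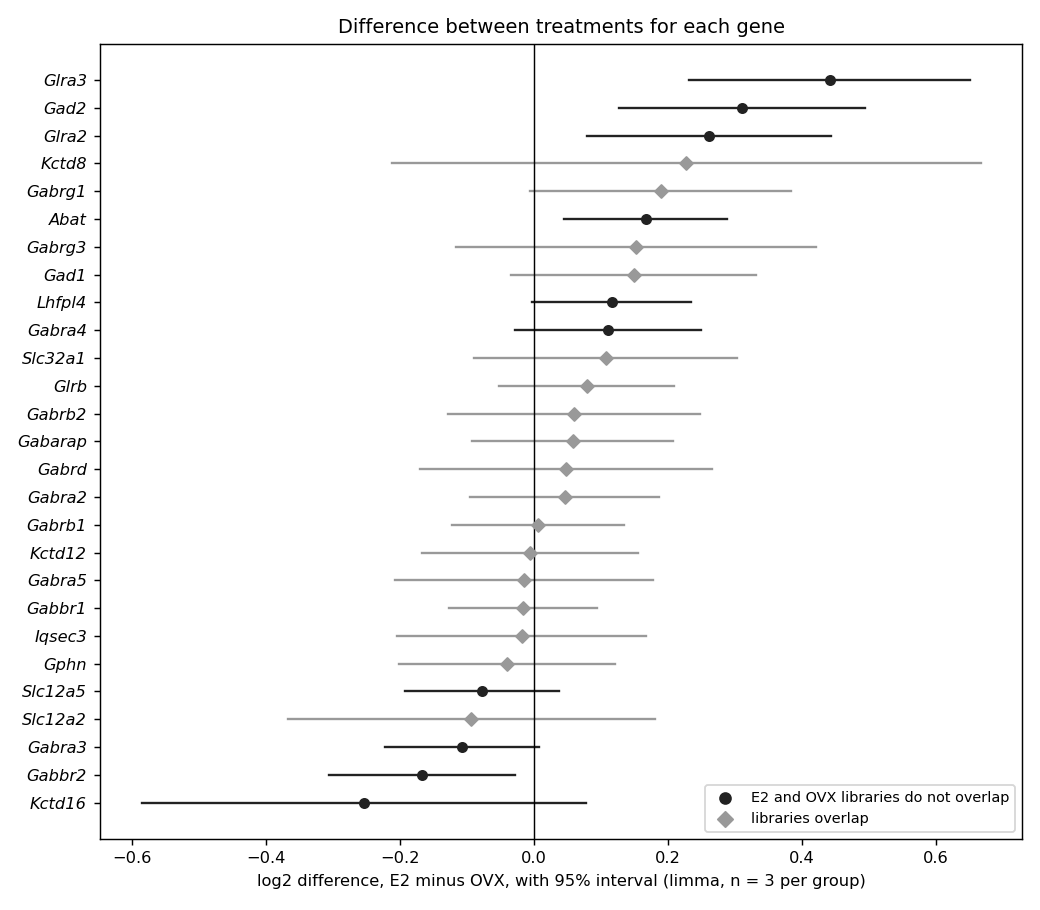
Log2 difference, E2 minus OVX, of each inhibitory synapse gene (x axis, points) with its 95% interval from limma (lines, n = 3 per group), sorted by difference, with black circles for genes whose E2 and OVX libraries do not overlap and grey diamonds for the others. *Glra3* has the largest difference, 0.44, and *Kctd16* the lowest, -0.25, while the interval of *Kctd8* is the widest, and no gene passed the test over all genes.

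Ratios of inhibitory synapse genes within a library do not depend on library scaling, and 6 pairs were compared by a 2-sided exact permutation test of 3 against 3 libraries, which cannot give a p below 0.1. The groups were apart for 2 of the 6 pairs. For single genes this held for 13.7% of all genes, and no share over all pairs of genes was taken. Both pairs hold a gene whose groups were already apart on its own, *Gad2* and *Glra3*, so they are not separate results. Other pairs with such a gene overlapped. *Gad1* minus *Gad2*, in log2 CPM, was 0.23, 0.30 and 0.13 in OVX and 0.02, 0.02 and 0.13 in E2 libraries. All E2 values were below OVX, although the values of replicate 3 in each group differed by less than 0.001. The mean was 0.22 ± 0.09 in OVX and 0.06 ± 0.06 in E2 females (SD, n = 3 each, exact permutation p = 0.1, adjusted p = 0.3 over 6 pairs).

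*Glra3* minus *Glrb* was -1.38, -1.35 and -1.01 in OVX and -0.84, -0.86 and -0.95 in E2 libraries. All E2 values were above OVX, with replicate 3 again the nearest of each group, and the mean was -1.24 ± 0.20 in OVX and -0.88 ± 0.06 in E2 females (SD, n = 3 each, exact permutation p = 0.1, adjusted p = 0.3). The other 4 pairs overlapped. *Glra3* minus *Glra2* differed between treatments by 0.18 (exact permutation p = 0.4, adjusted p = 0.6), by 0.04 without OVX replicate 1 and by 0.31 without OVX replicate 3. *Gabbr1* minus *Gabbr2* differed by 0.15 (exact permutation p = 0.3, adjusted p = 0.6), and by 0.09 without E2 replicate 2. The log2 ratio of chloride exporter to importer, *Slc12a5* minus *Slc12a2*, was 4.67 ± 0.25 in OVX and 4.69 ± 0.27 in E2 females (SD, n = 3 each, exact permutation p = 0.9, adjusted p = 0.9). *Slc32a1* minus *Gad1* was -0.61 ± 0.19 and -0.65 ± 0.10, respectively (SD, n = 3 each, exact permutation p = 0.9, adjusted p = 0.9).

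**Figure D3:**
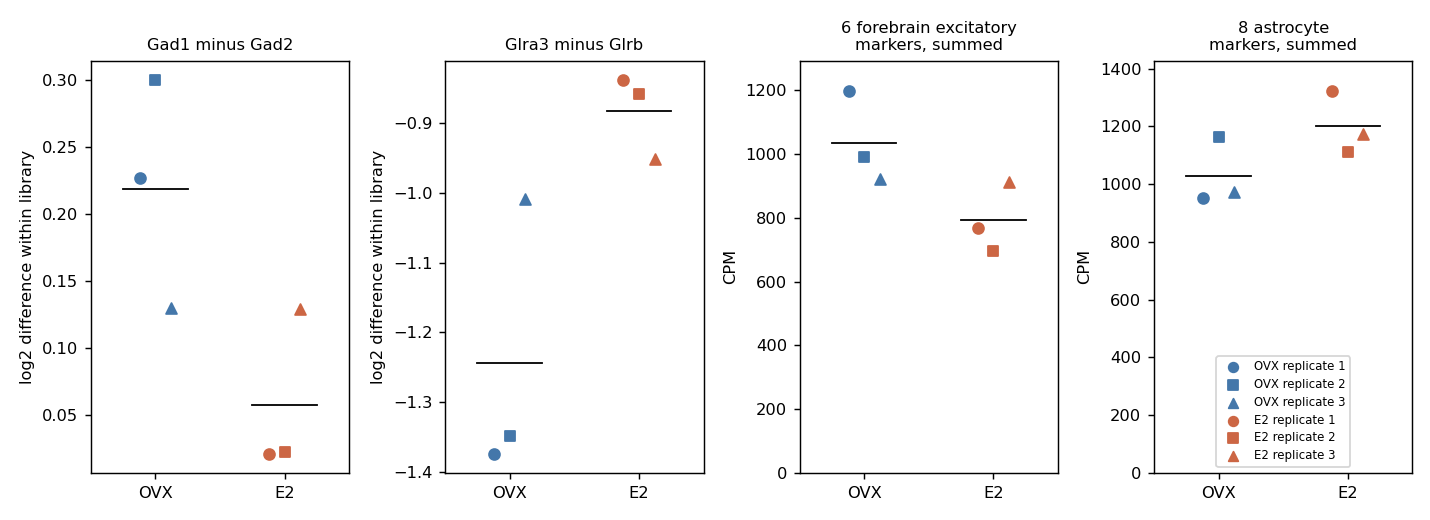
The left panels show the log2 difference within each library of *Gad1* minus *Gad2* and of *Glra3* minus *Glrb* (y axes, not starting at 0), and the right panels the summed CPM of the 6 forebrain excitatory and 8 astrocyte markers (y axes), in OVX and E2 libraries, with 1 point per library and a line at the group mean. Groups are apart in the first 3 panels, with *Gad1* minus *Gad2* at 0.22 in OVX and 0.06 in E2 females and the excitatory markers at 920.6 to 1197 CPM in OVX and 696.9 to 913.7 CPM in E2 libraries. Most of the excitatory sum is *Slc17a7*.

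To compare levels between genes, log2 CPM was taken per kilobase of the longest transcript and averaged over the 6 libraries. These are levels in the IP RNA, where the oligodendrocyte marker *Mbp* averaged a log2 CPM of 9.68 and the choroid plexus marker *Ttr* 9.39. No library of whole MeA tissue or of mice without Cre was sequenced, so the share from kisspeptin cells cannot be told. *Slc12a5* had the highest length-adjusted level, a log2 CPM per kilobase of 7.27, followed by *Gabbr1* at 7.17 and *Gabarap* at 6.32. The GABA-handling genes lay in the upper part of the order, with *Abat* at 5.96, *Gad1* at 5.54, *Slc32a1* at 5.27 and *Gad2* at 4.73. Among the GABA-A subunits the order was *Gabra3* at 5.69, *Gabra2* at 5.57, *Gabrb2* at 4.39, *Gabra4* at 4.37, *Gabra5* at 4.34, *Gabrd* at 3.80, *Gabrb1* at 3.69, *Gabrg1* at 3.67 and *Gabrg3* at 1.88.

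By the same length-adjusted level, the glycine receptor beta subunit gene *Glrb* was at 5.50, above both alpha subunit genes, *Glra2* at 3.56 and *Glra3* at 3.34. *Gabbr2* was at 5.86 and *Lhfpl4* at 5.63. *Gphn* was at 4.77, *Iqsec3* at 4.49 and *Kctd12* at 4.30, with *Slc12a2* at 2.47, *Kctd16* at 1.76 and *Kctd8* at 1.21 near or at the end. Of the 26 pairs of neighbours in this order, 20 overlapped in their ranges over libraries. In 4 of these 20 the order was nonetheless the same within each of the 6 libraries, *Slc12a5* above *Gabbr1*, *Gabbr2* above *Gabra3*, *Glra2* above *Glra3* and *Kctd16* above *Kctd8*, while in the other 16 it turned in at least 1 library, so that these neighbours did not differ beyond their spread. The ranges were apart at 6 places, after *Gabbr1*, *Gabarap*, *Slc32a1*, *Kctd12*, *Glra3* and *Slc12a2*.

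The choice of length mattered for some places. With all exonic bases of a gene in place of its longest transcript, an alternative chosen after the data were seen, the order had a Spearman correlation of 0.971 with the one above across the 27 genes, and no gene moved by more than 4 places. *Abat* moved from place 4 to 8, *Gad1* from 9 to 13, *Slc32a1* from 11 to 7 and *Kctd12* from 18 to 14. *Gad1* was then at 4.45, below *Gad2* at 4.69, so the order of these 2 genes depended on the length used. Per kilobase of the longest transcript, 23 of the 27 genes were above the median of the 13873 genes with a length.

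**Figure D4:**
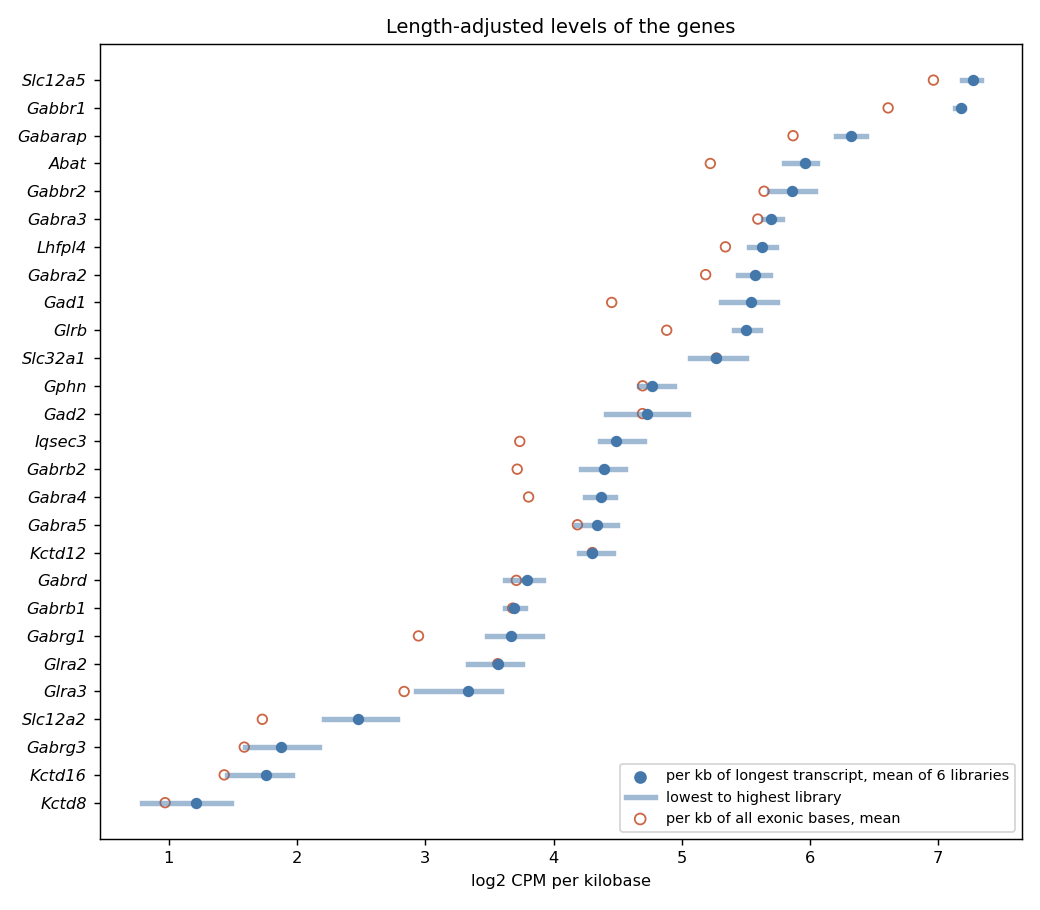
Level of each inhibitory synapse gene as log2 CPM per kilobase (x axis), with blue points for the mean of the 6 libraries per kilobase of the longest transcript, blue bars for the lowest to highest library and open orange circles for the mean per kilobase of all exonic bases. *Slc12a5* (7.27) and *Gabbr1* (7.17) stand above the other genes, and *Gabrg3*, *Kctd16* and *Kctd8* are at the low end, from 1.88 to 1.21.

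Other genes of inhibitory transmission were taken from 4 lists of 61 symbols, of which 59 were listed in 60 rows. None of the 60 passed the test (limma, adjusted p under 0.05), and 9 (15.0%) had an unadjusted p under 0.05, where 8.56% of all genes did. In the list of GABA and glycine uptake, breakdown and precursor supply, 9 of 12 genes had the higher mean in E2 females, and the smallest p was that of *Aldh5a1*, which encodes the enzyme acting after GABA transaminase (log2 difference 0.13, SE 0.07, limma adjusted p = 0.684). In the list of GABA-A receptor assembly, trafficking and anchoring, 8 of 22 genes had the higher mean in E2 females. The smallest p there was that of *Trak2*, which encodes a trafficking adaptor (log2 difference -0.22, SE 0.07, limma adjusted p = 0.311).

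Of the GABA-B receptor partners and effectors, 6 of 11 genes had the higher mean in E2 females. *Kcnj9*, which encodes a subunit of the potassium channels opened by GABA-B receptors, had 7.31, 7.30 and 7.31 in OVX and 7.12, 7.10 and 7.22 in E2 libraries. Its E2 libraries were below all OVX libraries without passing the test (log2 difference -0.16, SE 0.06, limma adjusted p = 0.429). Of the 11 genes, *Kcnj9* had the smallest p. It was the 1 gene of them whose groups did not overlap, where 13.7% of all genes did not. *Kcnj3*, another potassium channel gene of the list, differed by -0.02 (SE 0.06) with overlapping groups. In the chloride list, 8 of 15 rows had the higher mean in E2 females, and the smallest p was that of *Slc12a7*, a potassium chloride cotransporter gene of low level, with 2.25, 2.89 and 2.52 in OVX and 3.42, 2.99 and 3.18 in E2 libraries (log2 difference 0.65, SE 0.20, limma adjusted p = 0.321). Its groups did not overlap, whereas its relative *Slc12a2* showed overlapping values.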

How the data were processed

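RNA-seq was performed by the authors on 6 MeA IP libraries (3 OVX, 3 E2, unstranded, polyA-enriched). The authors trimmed reads with Trimmomatic 0.38, aligned them with STAR 2.6.0a and quantified them with RSEM on GRCm38, kept protein-coding genes with a mean CPM over 1 in a treatment group, and deposited log2 CPM values after TMM scaling and voom, which adds 0.5 to each count. A deposited table of the authors' own comparison (fold changes and p-values) and their group means were not used.

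The log2 CPM were compared here with limma 3.58.1 in R 4.3.3 (mean-variance trend, treatment as the only term, 2-sided, Benjamini-Hochberg over 13886 genes), tested beforehand on simulated data. Differences are E2 minus OVX. The median SE of a difference was 0.107 log2 units, and an exact permutation test of 3 against 3 cannot go below p = 0.1. Scaled library sizes were read from the lowest value of each library, taken as a count of 0. Same-numbered libraries did not deviate together, so numbers were not taken to pair them. Libraries are separate pools of animals. Positions and transcript lengths are from GENCODE mouse release 21 (GRCm38), and promoter windows from RefSeq (GRCm38.p6). Genes with an unadjusted p under 0.05 or groups that do not overlap, and the highest of each role, were given in full, and of the pathway lists the gene with the smallest p. The genes and lists were chosen with earlier results of these data known. Alternatives were other priors, weights, scalings, filters and pseudocounts, a replicate block and leaving out each library.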

Additional observations from a re-analysis of the deposited data

How the results depend on the processing

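Under 15 alternatives for each of the 27 inhibitory synapse genes, 383 of 405 differences kept their direction, 17 genes kept it under all 15, and 1 difference newly passed the test, that of *Glra3* without OVX replicate 3. The number of inhibitory synapse genes past the threshold was 0 under the other alternatives, and 0 to 1 with 1 library left out (limma, 3 to 8 genes at an unadjusted p under 0.05). Over all genes, 40 passed the test, 0 without the mean-variance trend (1017 at an unadjusted p under 0.05), 41 to 46 under other priors, weights, scalings, filters and pseudocounts, and 20 to 66 with 1 library left out (21 without OVX replicate 1, 26 without E2 replicate 1, 20 without E2 replicate 2 and 66 without E2 replicate 3). With a replicate block, 35 genes passed in all and 0 inhibitory synapse genes, and same-numbered libraries had correlations of deviations of -0.112, -0.156 and -0.0977 across genes, so the pairing has no hint in the data. Directions turned for 10 genes. The largest difference among them was that of *Slc12a2* (-0.0936), which turned without OVX replicate 2 (0.0348) and without E2 replicate 2 (0.0129). With all libraries kept, *Gabrb1* turned to -0.00361 with median centring and *Kctd12* to 0.0039 with quantile normalization. With 1 library left out, log2 differences ran from -0.00885 to 0.0978 for *Gabra2*, -0.0106 to 0.163 for *Gabrb2*, -0.0277 to 0.000492 for *Gabbr1*, -0.218 to 0.0348 for *Slc12a2*, -0.0303 to 0.137 for *Gabrd*, -0.0362 to 0.0424 for *Gabrb1*, -0.0859 to 0.0869 for *Iqsec3*, -0.0848 to 0.0376 for *Gphn*, -0.0702 to 0.0641 for *Gabra5* and -0.0606 to 0.0737 for *Kctd12*. Without a turn of direction they also moved by over 1.5 times for *Gad1* (0.0698 to 0.247), *Slc32a1* (0.0192 to 0.192), *Gabrg1* (0.115 to 0.279), *Gabrg3* (0.0421 to 0.281), *Glrb* (0.0455 to 0.117), *Kctd8* (0.0729 to 0.421), *Kctd16* (-0.312 to -0.165) and *Gabarap* (0.0127 to 0.131). The differences of the pairs ran from -0.128 to 0.160 for *Slc12a5* minus *Slc12a2*, -0.138 to 0.0511 for *Slc32a1* minus *Gad1*, 0.0354 to 0.311 for *Glra3* minus *Glra2* and 0.0931 to 0.221 for *Gabbr1* minus *Gabbr2*. The median rank of the inhibitory synapse genes was 2180 by log2 CPM, 3071 per kilobase of the longest transcript and 2613 per kilobase of all exonic bases, the last chosen after the data were seen. The causes were not tested. *Kctd8* and *Kctd16* had the lowest levels and the largest SEs, and with 3 pools per treatment the median SE of 0.107 log2 units over all genes limits which differences could be detected.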
